A study of Gallus gallus with 30 samples.

Results

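Gene expression in whole chicken embryos at Hamburger-Hamilton stage HH4, labelled as the stage of the full primitive streak, was compared with that at HH2. The comparison used the 2 arrays labelled HH4 and the 2 labelled HH2, 4 of the 30 arrays of a course of 15 stages from HH1 to HH38. Both groups were wild type chickens (Gallus gallus) of the Nera line, of mixed sex, from eggs incubated at 37.5 °C with no other treatment. Stage was the only difference between them that the labels gave. Each array held total RNA pooled over several embryos, taken whole apart from yolk and amnion, and the replicates of a stage were separate biological pools. The sources used here do not say how many embryos made a pool or how much of the tissue that spreads over the yolk was left on an embryo. The RNA was labelled from its 3' end and hybridised to the Affymetrix Chicken Genome Array, whose value for each probe set is a linear MAS5 signal.

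Gastrulation is the step in which the epiblast, the upper sheet of the blastoderm, gives rise to the germ layers. Cells gather at the primitive streak, lose their epithelial contacts and move inwards to form mesoderm and definitive endoderm, while the node at the tip of the streak acts as the organizer and the cells that stay at the surface become neural plate and epidermis. In birds the extraembryonic endoderm at the rim of the blastoderm takes up and digests yolk and secretes lipoproteins and plasma proteins, and the mesoderm beside it makes the blood islands.

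The platform held 37693 chicken probe sets, of which 29600 reached the signal needed for a test. They included 22471 probe sets that carried 1 gene symbol each, and these stood for 12146 genes. As background served the 95th percentile of its probe sets for other organisms, and it lay between 25.4 and 34.2 on the 4 arrays. Between 25126 and 25857 chicken probe sets were above it on each of them. The log2 signals of the HH2 arrays correlated at 0.949 across probe sets and those of the HH4 arrays at 0.953, against 0.917 to 0.918 between the stages. Across probe sets such correlations describe the arrays and are no test. Precision is limited by having 2 pools, each on 1 array, for a stage. The p-values below measure the spread between pools of a stage, pooled over the 15 stages.

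A probe set was called changed at a Benjamini-Hochberg adjusted p below 0.05 in limma and a change of at least 2-fold. By this rule 2395 of the 29600 probe sets (8.09%) changed from HH2 to HH4. Of these 1847 (6.24%) rose and 548 (1.85%) fell, so that 77.1% of the calls were rises, while the median change over all probe sets was 0.04 on the log2 scale. Both arrays of one stage lay above both arrays of the other for 1835 of the 1847 rises and 546 of the 548 falls. With the brightest probe set taken for each gene, 1172 of 12146 genes (9.65%) changed, 924 upwards (7.61%) and 248 downwards (2.04%). These shares are the background for the counts of gene groups below. In pooled whole embryos a rise can mean more cells of a type or more RNA in each cell, and these cannot be told apart.

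**Figure D1:**
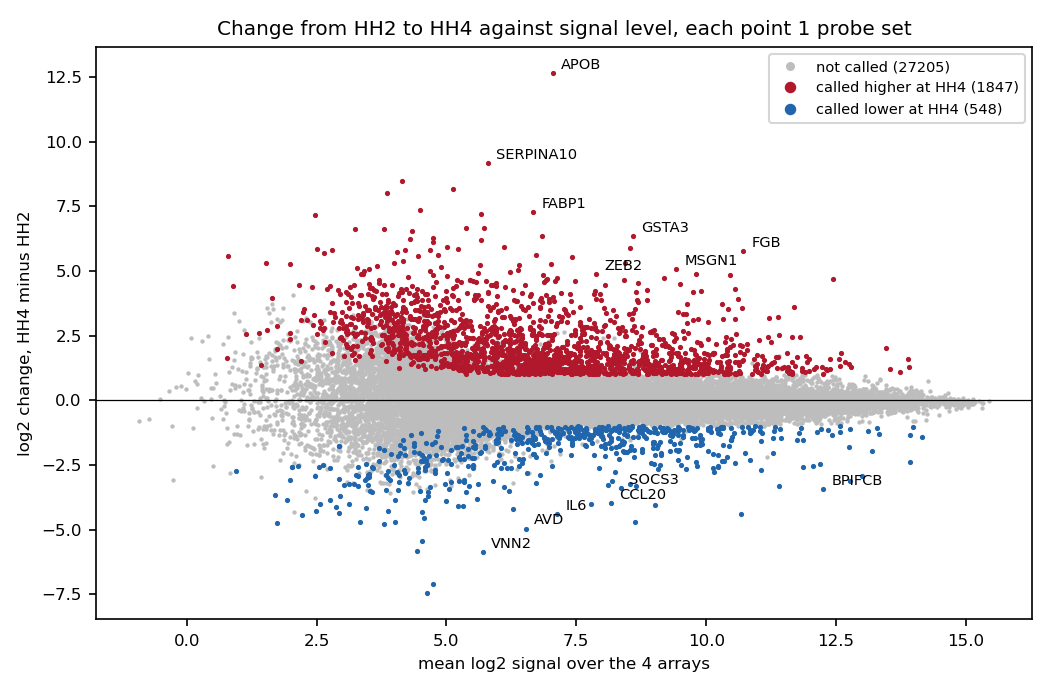
Each point is 1 of the 29600 probe sets tested, with its mean log2 signal over the 4 arrays on the horizontal axis and its log2 change from HH2 to HH4 on the vertical axis. Red points are the 1847 rises and blue points the 548 falls, and the plotted changes of dim probe sets are the fitted ones and exceed their bounds.

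Many of the rises started from signals under the background. Where the dimmer stage was below background on 1 or both arrays, the background replaced the signal there, and the fold is given as a lower bound. A fold was measured for 1039 of the rises, was a bound for 743, and could not be given for 65 that were below background at both stages. By these measured or bounded folds 410 rises were at least 4-fold, 138 at least 8-fold and 43 at least 16-fold. Among the falls 87 were at least 4-fold, 20 at least 8-fold and 6 at least 16-fold. There were 338 probe sets above background on both HH4 arrays and on none of the 4 arrays of HH1 and HH2, and 214 of them were called. Judged by HH2 and HH4 alone, 725 were above background on both HH4 arrays and on neither HH2 array, and 393 of them were called. In the other direction, 580 were above background on both HH2 arrays and on neither HH4 array, and 94 of them were called.

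Of 27 landmark genes of gastrulation 8 rose and 4 fell. No direction was set for them beforehand, so these counts do not test the stage labels. TBXT, the T-box factor also known as brachyury that marks the streak and its mesoderm, had signals of 3588 and 4272 at HH2 and 10345 and 11498 at HH4. Both HH4 arrays were above both HH2 arrays, a rise of 1.48 ± 0.21 on the log2 scale (SE, 2 pools a stage; limma adjusted p = 1.45e-05), or 2.79-fold. MSGN1, a factor of presomitic mesoderm, had 92.3 and 149.95 at HH2 and 3946 and 4031 at HH4, a rise of 33.9-fold (adjusted p = 0.000113) with no overlap of the stages. EOMES, a T-box factor of early mesendoderm, went the other way, from 1568 and 1162 at HH2 to 279 and 165 at HH4. Its fall was 6.29-fold (adjusted p = 0.00527), and the call was lost without HH2 replicate 1 (adjusted p = 0.0547) or without HH4 replicate 2 (adjusted p = 0.0693). MIXL1, a homeobox factor of mesendoderm, had 1187 and 1444 at HH2 and 345 and 157 at HH4, with HH4 replicate 2 the lower of its pair. It fell 5.62-fold (adjusted p = 0.0105), a call lost without HH2 replicate 2 (adjusted p = 0.0713) or HH4 replicate 2 (adjusted p = 0.142). One of the 2 MIXL1 probe sets was called.

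Of 27 measured genes of streak and nascent mesoderm 9 rose and 4 fell, with a median change of 0.63 on the log2 scale against 0.03 over all genes. The growth factors FGF19 and FGF3 rose 6.99-fold and 6.33-fold (adjusted p = 9.51e-07 and 3.50e-07), the zinc finger gene SP8 rose 12-fold, and the signalling protein WNT11 rose 2.53-fold. The caudal homeobox genes CDX4 and CDX1, which pattern the posterior body, also rose, CDX4 from 1017 and 1896 to 8232 and 6865 and CDX1 from 236 and 269.7 to 765 and 915 (adjusted p = 0.036 and 0.034). Both calls were lost when any 1 of the 4 arrays was left out, with adjusted p-values of 0.231, 0.0571, 0.155 and 0.106 for CDX4 and of 0.151, 0.0956, 0.0945 and 0.163 for CDX1 without HH2 replicate 1, HH2 replicate 2, HH4 replicate 1 and HH4 replicate 2. Without 1 of the 4 arrays 6 to 8 genes of the list were called higher. CDX2, their relative, was bright at both stages, with 6404 and 6396 at HH2 and 5519.7 and 5875 at HH4, and was not called. The falls besides EOMES and MIXL1 were GDF3, a TGF-beta family ligand, 3.08-fold (adjusted p = 0.00145), and WNT5B, 2.37-fold (adjusted p = 3.50e-05). WNT8A, FGF8, FGF4, TBX6 and NODAL did not pass, with log2 changes of 1.12, -0.93, 0.63, -0.39 and -1.71. NODAL, the ligand that induces the streak, was close to background at both stages, with 82.0 and 57.5 at HH2 and 62.5 and 7.03 at HH4.

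**Figure D2:**
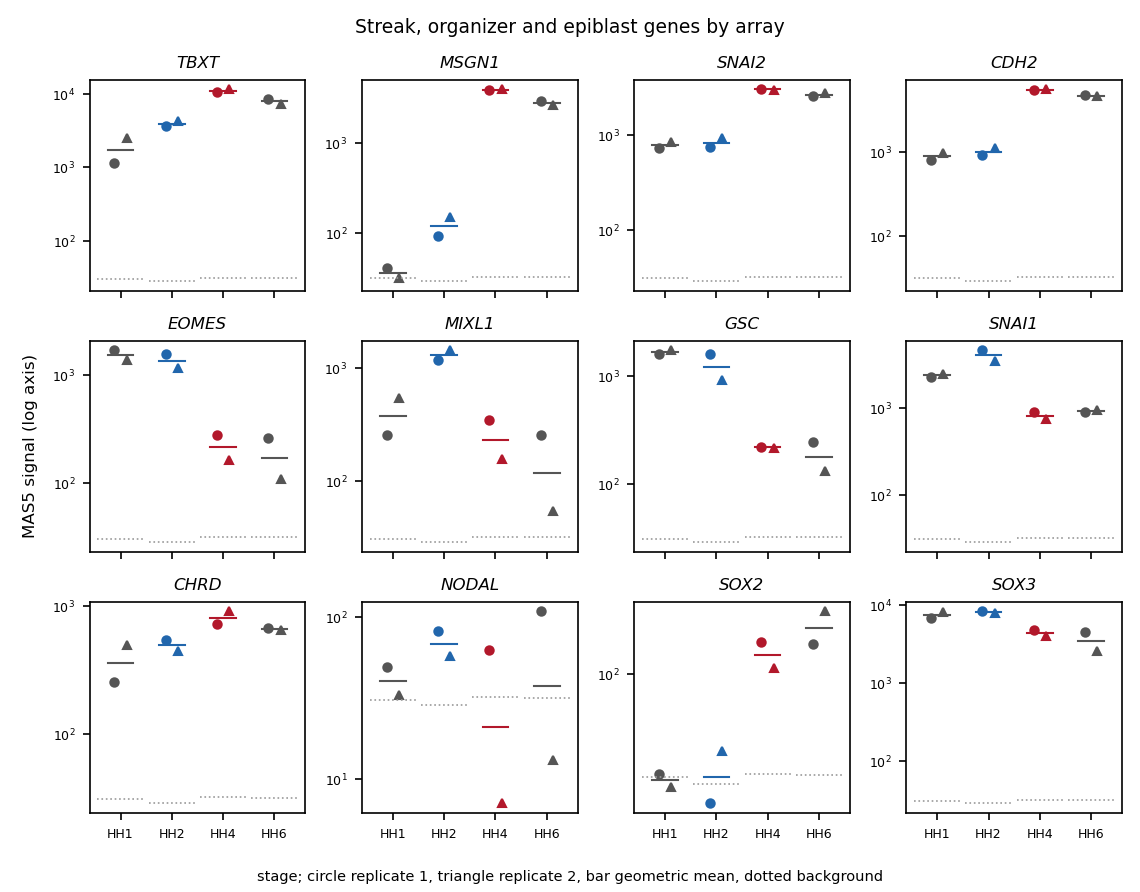
Each panel gives the MAS5 signal of 1 gene, on a log axis, on the 8 arrays of HH1, HH2, HH4 and HH6, with circles for replicate 1, triangles for replicate 2, bars for geometric means and dotted lines for the mean background of the stage. TBXT, MSGN1, SNAI2 and CDH2 stand higher at HH4 than HH2, and EOMES, MIXL1, GSC and SNAI1 stand lower.

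Among 17 measured genes of the node, organizer and axial mesoderm 7 rose and 3 fell. GSC, a homeobox factor of the early organizer, had 1586 and 925 at HH2 and 221 and 214 at HH4. Its fall was 5.57-fold (log2 change -2.48 ± 0.36, adjusted p = 1.72e-05), with both HH4 arrays close together and far below HH2. The BMP-type ligand ADMP had 986 and 765 at HH2 and 124 and 63.2 at HH4 and fell 9.80-fold (adjusted p = 0.0254), a call lost without any 1 of the 4 arrays, with adjusted p between 0.0545 (without HH4 replicate 1) and 0.172 (without HH4 replicate 2). The BMP antagonist NOG fell from 559 and 646 to 177 and 198, or 3.22-fold (adjusted p = 4.54e-05). GNOT2, a homeobox gene named in the files and chosen after its values were seen, fell 5.62-fold (adjusted p = 0.00957), and its call was lost without HH2 replicate 1 (adjusted p = 0.0576) or HH4 replicate 1 (adjusted p = 0.122).

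The 7 rises in this group were FST, LEFTY1, HESX1, SIX3, HHEX, the secreted WNT antagonist FRZB and the forkhead factor FOXD3. FRZB had 2229 and 2337 at HH2 and 4372 and 4794 at HH4, a rise of 2.01-fold that was under 2-fold without HH2 replicate 1 or HH4 replicate 2 (log2 change 0.97 and 0.94), and FOXD3, with a log2 change of 1.19 (adjusted p = 0.00064), was read after its values were seen. FST, the activin-binding protein follistatin, was below background on both HH2 arrays and reached 618 and 634, a rise of at least 22.0-fold (adjusted p = 2.07e-11). LEFTY1, an antagonist of NODAL, was likewise below background at HH2 and stood at 205 and 154 at HH4, or at least 6.24-fold higher (adjusted p = 2.07e-06). HESX1, a homeobox factor of the anterior neural plate and head tissue, had 36.2 and 79.0 at HH2 and 694 and 463 at HH4, a rise of 10.6-fold (adjusted p = 1.48e-07). SIX3, an anterior forebrain factor, was below background on both HH2 arrays, at 2.02 and 2.53, and stood at 149 and 194 at HH4 (at least 5.97-fold, adjusted p = 9.74e-12). HHEX, a homeobox factor of anterior endoderm and blood vessels, rose from 2199.6 and 1159 to 5884 and 5336, or 3.51-fold (adjusted p = 3.25e-07).

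Several classical organizer genes were not called. The BMP antagonist CHRD had 545 and 441 at HH2 and 716 and 907 at HH4, a log2 change of 0.72 ± 0.28 that missed the threshold (adjusted p = 0.0756). FOXA2, a forkhead factor of node and endoderm, had 3011 and 3181 at HH2 and 1646 and 1532 at HH4. Both HH4 signals were below those of HH2 (adjusted p = 0.00037), but the change of -0.96 was under 2-fold. SHH, LHX1, OTX2 and CER1 had log2 changes of 1.68, 0.25, 0.07 and -1.47 with adjusted p-values of 0.0559, 0.547, 0.81 and 0.468.

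Of 30 measured FGF pathway genes 7 rose and 0 fell, with 16 of 30 changes upwards in sign. Besides FGF19 and FGF3 they included the receptor FGFR2, from 1479 and 1513 to 4085 and 4052 (2.72-fold, adjusted p = 8.19e-12), the receptor-like FGFRL1 (7.13-fold), the ETS factor ETV1, a target of the pathway (3.31-fold), and its feedback inhibitor IL17RD (2.33-fold). Of 41 WNT genes 5 rose and 2 fell, among them the secreted inhibitor SFRP1, from 1058 and 1023 to 2144 and 2161 (2.07-fold). The receptor FZD5 fell 2.11-fold, a call lost without HH2 replicate 1 (adjusted p = 0.0782). Of 21 genes of NODAL and activin signalling 2 rose, FST and LEFTY1, and 2 fell, GDF3 and the activin subunit INHBB, the latter from 715 and 621 to 157 and 186 (3.89-fold, adjusted p = 0.000383). Of 30 BMP genes 2 rose, the target MSX2 (3.38-fold, adjusted p = 1.57e-10) and the chordin-cleaving protease TLL1 (3.47-fold), and 2 fell, NOG and CHRDL1, the latter under 2-fold without HH4 replicate 1 (log2 change -0.79). The shares higher were 12.2% for WNT, 9.52% for NODAL and activin and 6.67% for BMP genes, against 7.61% of all genes. Those lower were 4.88%, 9.52% and 6.67%, against 2.04%, from 2 genes in each list. Such small counts are not read as a change of a pathway. The ligand BMP4 was below background on 1 of 2 HH2 arrays and was not called, with 10.2 and 81.4 at HH2 and 76.5 and 62.2 at HH4.

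Retinoic acid enzymes rose on both the making and the breaking side. Of 17 measured genes of this pathway 5 rose and 1 fell. ALDH1A2, the main enzyme that makes retinoic acid in mesoderm, had 996 and 854 at HH2 and 4353 and 4878 at HH4, a rise of 4.999-fold (adjusted p = 3.32e-12). ALDH1A1 and ALDH1A3, enzymes of the same step, rose 10.2-fold and 3.39-fold. CYP26A1 and CYP26C1, which break retinoic acid down, rose 3.84-fold and 4.25-fold (adjusted p = 8.78e-06 and 4.37e-07), with 1 of 3 CYP26C1 probe sets called. CYP26B1, of the same family, fell from 445 and 310.0 to 179 and 136 (2.38-fold, adjusted p = 0.000161), and without HH2 replicate 1 the change was under 2-fold. In the Notch pathway 6 of 18 genes rose and 1 fell. Among the rises were JAG1, whose bounded change was 0, and JAG2, which was under 2-fold without HH2 replicate 2 (log2 change 0.97). The ligand DLL1 went from 2939 and 2784 to 6724 and 7117 (2.42-fold, adjusted p = 3.07e-11), the modifier LFNG rose 2.82-fold and the factor HES6 11.4-fold, while HES4 fell from 5437 and 5423 to 2349 and 2188 (2.40-fold, adjusted p = 8.85e-09).

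Genes of the change from epithelium to mesenchyme, and of the matrix, rose in 15 of 44 cases and fell in 1. The SNAI genes, zinc finger repressors of epithelial genes, went opposite ways. SNAI2 had 749 and 944 at HH2 and 3095 and 3063 at HH4 and rose 3.66-fold (log2 change 1.87 ± 0.14, adjusted p = 1.59e-09), and SNAI1, added after its values were seen, had 4655 and 3535 at HH2 and 913 and 743 at HH4 and fell 4.93-fold (log2 change -2.30 ± 0.18, adjusted p = 2.57e-09). For neither gene did the stages overlap. The repressors ZEB2 and ZEB1 rose from 38.9 and 48.3 to 1315 and 1225 (29.3-fold, adjusted p = 3.27e-16) and from 93.0 and 98.6 to 687 and 735 (7.42-fold, adjusted p = 1.54e-12). TWIST1, a mesenchymal factor, was below background on both HH2 arrays and reached 545 and 532 (at least 18.9-fold, adjusted p = 4.74e-12). Of the cadherins, CDH2, or N-cadherin, had 921 and 1095 at HH2 and 5401 and 5579.6 at HH4 and rose 5.47-fold (log2 change 2.45 ± 0.10, adjusted p = 2.94e-14), and CDH11 rose 23.2-fold. CDH1, the epithelial E-cadherin, did not fall, with 2323 and 2156 at HH2 and 4337 and 4995 at HH4 and a rise of 2.08-fold (adjusted p = 1.22e-06). That change was under 2-fold without HH4 replicate 2 and with each array scaled to its 75th percentile, where it was 0.95 and 0.96 on the log2 scale. Of 27 junction and keratin genes 4 rose and 0 fell, but the median change was -0.18 and only 10 of 27 changes were upwards in sign. The rises were CDH1, KRT14, the endothelial claudin CLDN5 and KRT222. The call of KRT222 was lost under 8 alternatives, among them quantile normalization (limma adjusted p = 0.0898) and a pseudocount of 32 (log2 change 0.73).

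Paraxial mesoderm, the source of the somites, had 12 of 23 measured genes higher and 1, HES4, lower. HES4 and the rises MSGN1, DLL1, LFNG, TWIST1 and CDH11 were also counted in lists above, so these counts are not independent. The median change was 1.496, or 0.93 with dim genes at their bound. The forkhead factor FOXC2 and the homeobox factor MEOX1, both genes of somite mesoderm, were below background on both HH2 arrays and rose at least 10.8-fold and at least 7.77-fold (adjusted p = 7.48e-09 and 4.86e-09). RIPPLY1, a regulator of somite boundaries, stood at 159 and 218 at HH4 (at least 6.52-fold, adjusted p = 0.00021). TCF15, a somite factor also called paraxis, was barely above background at HH4, with 60.4 and 61.6, and its bound was at least 2.14-fold, a call lost without HH2 replicate 1 (adjusted p = 0.07).

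In lateral plate, heart and intermediate mesoderm 13 of 22 genes rose and 0 fell, with a median of 1.35 (1.08 with bounds). HAND2, a factor of lateral plate and heart, had 47.0 and 75.7 at HH2 and 886 and 1179 at HH4, a rise of 17.1-fold (log2 change 4.10 ± 0.30, adjusted p = 6.86e-10) with no overlap. Its relative HAND1 was below background at HH2 and stood at 76.7 and 132 (at least 3.54-fold). ISL1, a factor of heart progenitors, rose from 40.4 and 63.2 to 433 and 421 (8.45-fold, adjusted p = 1.33e-07), the limb and lateral plate gene PRRX1 rose 4.18-fold, and the heart and endoderm factor GATA5 rose from 2709.9 and 3416 to 9598 and 9057 (3.06-fold, adjusted p = 7.33e-07). NKX2-5, the early heart factor, was near background at HH4, with 52.0 and 69.4, and its call was lost with signals floored at background (adjusted p = 0.0571). GATA6 and GATA4 were not called, with 2755 and 2684 at HH2 and 2287 and 2277 at HH4 and with 188 and 135 at HH2 and 62.0 and 56.8 at HH4.

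Blood and vessel precursors had 14 of 27 genes higher and 1 lower, with a median of 1.49 (1.13 with bounds). LMO2, a cofactor needed for blood and vessel progenitors, had 129 and 99.1 at HH2 and 3133 and 2819.7 at HH4, a rise of 26.3-fold (log2 change 4.71 ± 0.15, adjusted p = 5.53e-16). Its partner TAL1 rose from 38.6 and 52.2 to 366 and 377 (8.28-fold, adjusted p = 3.76e-09). KDR, the VEGF receptor of angioblasts, had 137 and 122 at HH2 and 1187 and 1073 at HH4 and rose 8.72-fold (adjusted p = 7.25e-11), with 1 of its 3 probe sets called. The ETS factor FLI1 rose 11.6-fold, the VEGF co-receptor NRP1 13.3-fold, and the receptor FLT1 5.06-fold. CDH5, the cadherin of endothelium, was below background on 1 of 2 HH2 arrays and reached 719 and 757 (at least 24.4-fold, adjusted p = 1.37e-10). CLDN5, an endothelial claudin, was below background on both HH2 arrays and reached 773 and 853 (at least 28.5-fold, adjusted p = 2.61e-13). GATA2 was close to background, with 37.5 and 36.5 at HH2 and 31.0 and 47.6 at HH4, and was not called. The 1 fall was CD34, with a log2 change of -1.16. PECAM1, SPI1 and ERG were not called either, with log2 changes of -0.63, 0.20 and 0.01. Of the 27 changes 23 were above 0.

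Of 15 globin and red cell genes 4 rose and 2 fell. The alpha-type embryonic globin HBZ had 51.5 and 29.6 at HH2 and 196 and 191 at HH4 (at least 4.77-fold, adjusted p = 0.00785) and the call was lost without HH2 replicate 2 (adjusted p = 0.0946). HBAD, the alpha-D globin, rose from 87.3 and 81.0 to 344 and 267 (3.61-fold, adjusted p = 0.000195). HBBR, of the beta family, had 46.2 and 25.3 at HH2 and 10.5 and 66.0 at HH4 and was not called. HBE, also a globin, went the other way, with 956 and 787 at HH2 and 426 and 373 at HH4, a fall of 2.18-fold (adjusted p = 0.00143) that was under 2-fold without HH2 replicate 1 (log2 change -0.98). HEMGN, a nuclear protein of blood cells, also fell from 539.9 and 419.7 to 143 and 84.5 (4.33-fold, adjusted p = 6.64e-05).

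Of 32 measured genes of yolk sac endoderm and yolk uptake 17 rose and 2 fell, with a median change of 1.60. Their summed signal was 28914 and 30077 at HH2 and 102913 and 104528 at HH4. APOB, the protein core of the lipoproteins that carry yolk lipid, was below background on both HH2 arrays, at 1.07 and 2.54, and stood at 11169 and 10071 at HH4, at least 372-fold higher (adjusted p = 3.11e-12), with 5 of its 7 probe sets called. TTR, the thyroid hormone carrier transthyretin, was already well above background at HH2, with 1022 and 1188 at HH2 and 27672 and 28548 at HH4, and rose 25.5-fold (log2 change 4.67 ± 0.13, adjusted p = 8.90e-17). CUBN, the endocytic receptor cubilin, had 168 and 244 at HH2 and 3646 and 3657 at HH4 and rose 18.0-fold (adjusted p = 2.50e-13). Its partner in uptake LRP2, or megalin, rose 3.95-fold with 2 of 6 probe sets called. MTTP, which loads lipid onto APOB, was below background at HH2 and stood at 587 and 555 (at least 20.04-fold, adjusted p = 3.77e-06). FABP1, a fatty acid binding protein of liver and gut, was likewise below background at HH2 and reached 1267 and 1245 (at least 44.1-fold, adjusted p = 5.58e-08). The nuclear receptor HNF4A, which drives such genes, rose from 604 and 640.4 to 1681 and 1988 (2.94-fold, adjusted p = 0.000226), with 1 of 3 probe sets called. The falls were the phosphate transporter SLC34A2 (5.04-fold, adjusted p = 0.00366) and the lipoprotein receptor VLDLR, from 2284 and 2596 to 851 and 811 (2.93-fold, adjusted p = 1.76e-05).

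Plasma proteins of the kind the liver later makes rose in 21 of 43 cases and fell in 2, and their summed signal was 6823 and 5994 at HH2 and 63147 and 63467 at HH4. TTR, FGB, FGG and TF made 85.8% and 85.9% of the HH4 sums. This list shares TTR, TF, APOH, ALB and AFP with the yolk sac list, and these 5 genes made 55.4% and 55.6% of its HH4 sums and 34.0% and 33.8% of those of the yolk sac list, so neither the counts nor the sums of the lists are independent. The fibrinogen chains stood high at HH4. FGB had 296 and 175 at HH2 and 12397 and 12351 at HH4 and rose 54.3-fold (log2 change 5.76 ± 0.21, adjusted p = 4.03e-15), FGG rose from 1144 and 536 to 7098 and 7192 (9.12-fold), and FGA, below background at HH2, reached 613 and 562 (at least 20.6-fold). TF, the iron carrier transferrin, had 374 and 304 at HH2 and 7039 and 6453 at HH4 and rose 19.99-fold (adjusted p = 5.24e-16). The protease inhibitor SERPINA10 went from below background to 1339 and 1321 (at least 46.7-fold, adjusted p = 8.61e-10), plasminogen, PLG, rose 17.2-fold, and AMBP, the precursor of a plasma protease inhibitor, at least 15.0-fold. The main carriers of later life did not pass: ALB, albumin, had a log2 change of 0.70 (adjusted p = 0.175), and AFP, alpha-fetoprotein, was below background on the 4 arrays. Both were looked up after the other values were seen.

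**Figure D3:**
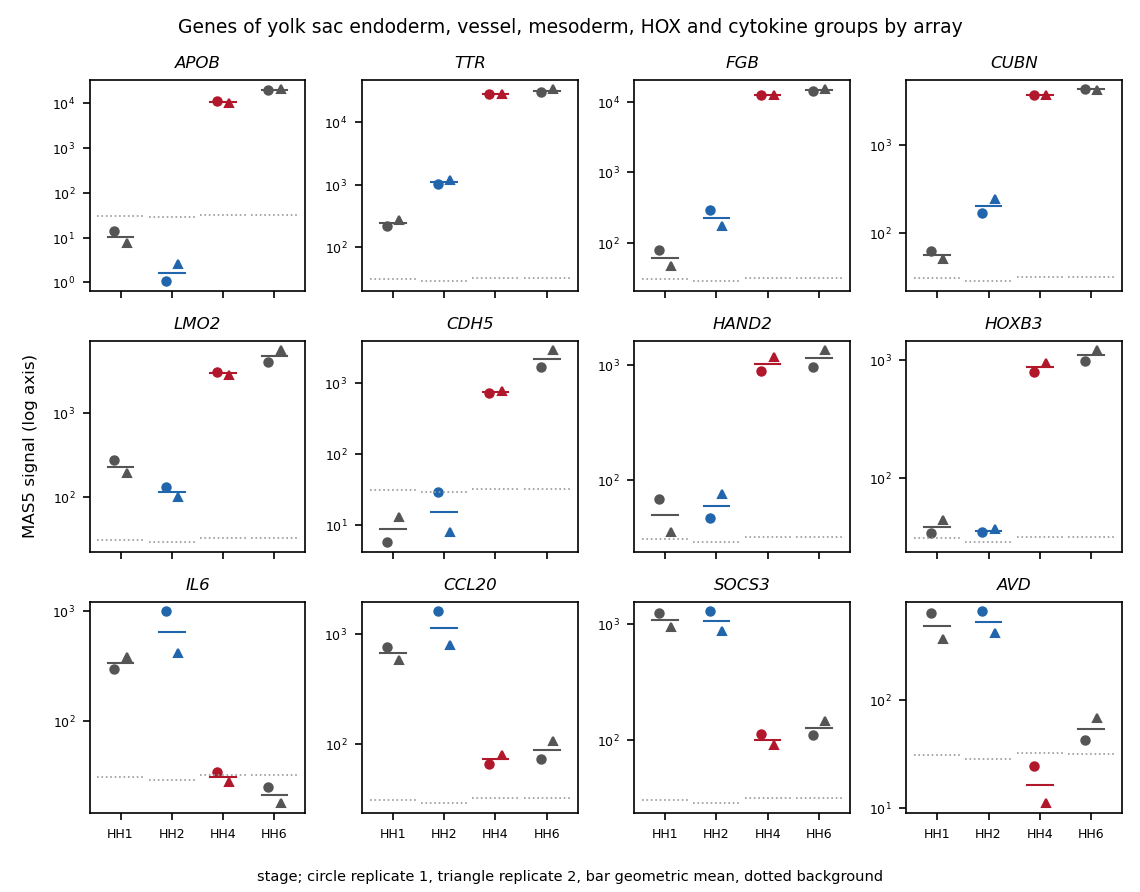
Each panel gives the MAS5 signal of 1 gene, on a log axis, on the 8 arrays of HH1, HH2, HH4 and HH6, with circles for replicate 1, triangles for replicate 2, bars for geometric means and dotted lines for the mean background of the stage. The upper 8 genes stand far higher at HH4 than HH2, and IL6, CCL20, SOCS3 and AVD stand far lower. For IL6 the called probe set is drawn, and its other probe set, brighter over the 30 arrays, was not called.

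Genes that handle lipid and digested yolk were counted next. Of 47 genes of lipid and sterol metabolism 13 rose and 0 fell, among them LCAT, which esterifies plasma cholesterol (14.9-fold, adjusted p = 3.10e-09), MOGAT1, which rebuilds glycerides (4.76-fold), and FADS2, a fatty acid desaturase (4.42-fold). Of 29 lysosome and digestion genes 4 rose and 0 fell, the lipase LIPA from 325 and 302 to 829 and 829.9 (2.65-fold) and the peptidases DPP4 and ANPEP by 3.95-fold and 4.09-fold among them. Solute carriers changed at shares near those of all genes, with 26 of 276 higher and 8 lower. SLC3A1, the heavy subunit of a cystine and dibasic amino acid transporter, was below background at HH2 and reached 1197 and 1158 (at least 41.3-fold, adjusted p = 2.83e-14). Other large rises taken by rank alone were GSTA3, a glutathione transferase, from 52.9 and 34.4 to 3371 and 3646 (82.1-fold), SELENOP1, a plasma selenium carrier (29.2-fold), GPD1L2 (28.6-fold) and CLEC19A (39.1-fold).

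Definitive endoderm genes were divided, 5 of 21 higher and 5 lower. SOX17, a factor of endoderm that was bright at both stages, had 15919 and 16616 at HH2 and 6419.5 and 6663 at HH4 and fell 2.49-fold (adjusted p = 4.50e-06). The other falls were EOMES, MIXL1, GSC and KLF5 (2.53-fold). The rises were HHEX, HNF4A, GATA5, SOX2 and the secreted trefoil peptide TFF3 (3.55-fold, adjusted p = 2.96e-05). The yolk sac list and this list share HNF4A, and the streak, node and endoderm lists share EOMES, MIXL1, GSC and HHEX, so their counts are not independent.

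**Figure D4:**
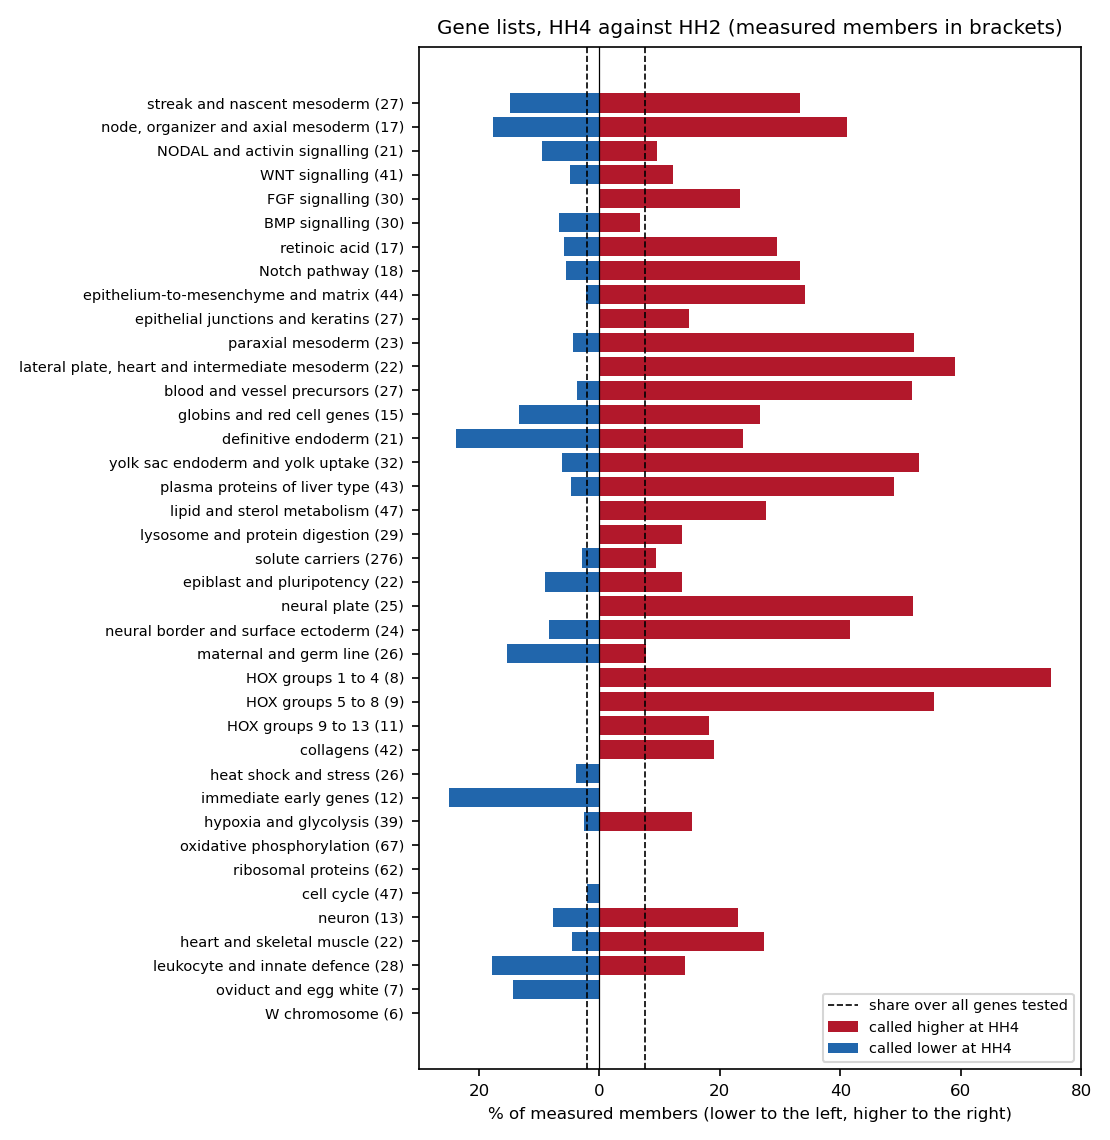
For each gene list, the bar to the right gives the percent of its measured members called higher at HH4 and the bar to the left the percent called lower, with the number measured in brackets and dashed lines at 7.61% and 2.04%, the shares over 12146 genes. HOX groups 1 to 4 have the longest bar, with 6 of 8 higher.

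Genes of the neural plate rose in 13 of 25 cases and fell in 0, with a median of 1.00. Among these rises, the calls of NCAM1, SOX1, PAX6 and GBX2 were lost under 9, 7, 4 and 3 alternatives. The rises CDH2, ZEB2, HESX1, SIX3 and SOX2 were also counted in lists above. SOX2, the factor that marks neural plate, was below background on 1 of 2 HH2 arrays and had 144 and 107 at HH4 (at least 3.83-fold, adjusted p = 0.000499), while its relative SOX3 went from 8344 and 7900.4 to 4779.6 and 3995, a change of -0.89 on the log2 scale that was under 2-fold (adjusted p = 0.000351). The zinc finger factors ZIC2 and ZIC1 rose, ZIC2 from 327 and 264 to 2531 and 2478 (8.52-fold, adjusted p = 3.01e-12) and ZIC1 from below background to 279 and 265 (at least 9.54-fold). PRTG, the surface protein protogenin, rose from 2125 and 2101 to 6876 and 7149 (3.32-fold, adjusted p = 4.73e-10). Of 24 genes of the neural border and surface ectoderm 10 rose and 2 fell. GATA3, a factor of non-neural ectoderm, was below background on 1 of 2 HH2 arrays and reached 394 and 351 (at least 12.4-fold, adjusted p = 9.43e-11), and DLX6, below background on both, rose at least 5.52-fold. TFAP2C, a factor of epiblast and germ cells, fell from 1635 and 1646 to 511 and 596 (2.97-fold, adjusted p = 0.000131).

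Epiblast and pluripotency genes rose in 3 of 22 cases and fell in 2, with a median of -0.36 on the log2 scale. SALL4, a zinc finger factor of pluripotent cells, had 8712 and 8983 at HH2 and 4924 and 5159.5 at HH4, a change of -0.81 that passed the p threshold (adjusted p = 7.49e-05) but was under 2-fold. Of 26 maternal and germ line genes 2 rose and 4 fell. ASTL, a protease of the astacin family, had 34506 and 36128 at HH2 and 8699 and 5342 at HH4, with HH4 replicate 2 the lower, and fell 5.18-fold (adjusted p = 1.39e-07). Its mean at HH1 was 4549.8, so HH2 stood above both neighbours. KPNA7, an importin of the oocyte and early embryo in mammals, had 945 and 826 at HH2 and 87.5 and 34.0 at HH4 (at least 16.1-fold, adjusted p = 0.00454), and the call was lost without HH4 replicate 2 (adjusted p = 0.0713). The germ cell helicase DDX4 had 836 and 707 at HH2 and 218 and 185 at HH4 and a fall of 3.83-fold (adjusted p = 0.0409), lost without any 1 of the 4 arrays (adjusted p from 0.107 without HH2 replicate 2 to 0.175 without HH2 replicate 1).

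HOX genes set position along the body axis. Of the measured genes of paralog groups 1 to 4, 6 of 8 rose, against 5 of 9 in groups 5 to 8 and 2 of 11 in groups 9 to 13, with 0 falls in each. The medians were 3.08, 1.83 and -0.01, or 2.48, 1.11 and 0 with dim genes at their bound. HOXB1 was above background at HH2 already, with 559 and 587 at HH2 and 2956 and 3265 at HH4, a rise of 5.42-fold (adjusted p = 4.94e-07). HOXB3 had 34.9 and 36.9 at HH2 and 794 and 950.5 at HH4, a rise of 24.2-fold (log2 change 4.596 ± 0.13, adjusted p = 6.88e-17), and HOXA3, below background on 1 of 2 HH2 arrays, reached 655 and 787 (at least 25.1-fold, adjusted p = 5.58e-15). In each of these 2 genes 1 of 2 probe sets was called. HOXB5 had 43.9 and 23.9 at HH2 and 431 and 562 at HH4 (at least 13.1-fold, adjusted p = 1.64e-11) and HOXA6 95.7 and 67.9 at HH2 and 584 and 714 at HH4 (8.02-fold, adjusted p = 2.04e-12). In groups 9 to 13, HOXA9 rose from 30.1 and 56.9 to 366 and 324 (8.31-fold, adjusted p = 6.07e-10), and HOXA13, below background at HH2, had only 46.6 and 72.7 at HH4 (at least 2.04-fold). HOXA5 was called at an adjusted p of 0.0492, and 12 of the alternatives tried ended that call.

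CCL20, SOCS3 and 1 probe set of IL6 were among the 12 largest falls. CCL20, a chemokine, had 1602 and 795 at HH2 and 65.9 and 79.5 at HH4 and fell 15.6-fold (log2 change -3.96 ± 0.44, adjusted p = 4.06e-07). SOCS3, an inhibitor of cytokine signalling that cytokines induce, had 1299 and 873 at HH2 and 113 and 91.7 at HH4 and fell 10.5-fold (log2 change -3.39 ± 0.31, adjusted p = 2.20e-08). For both genes HH2 replicate 1 was the higher of its pair, and the stages were far apart. IL6, an inflammatory cytokine, had 2 probe sets that disagreed. The one with the lower mean over the 30 arrays was called and had 1000.5 and 414 at HH2 and 33.6 and 27.5 at HH4 (at least 19.0-fold, adjusted p = 0.0176), lost without HH2 replicate 1 (adjusted p = 0.145), HH4 replicate 1 (adjusted p = 0.0699) or HH4 replicate 2 (adjusted p = 0.0912). The other had 105 and 97.8 at HH2 and 77.8 and 70.9 at HH4 (adjusted p = 0.452).

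Some related genes were picked after their values were seen and because they fell, so they are no evidence of a shared direction. The chemokines IL8L1 and IL8L2 had 311 and 200.3 at HH2 and 31.0 and 40.3 at HH4 and 1064 and 691 at HH2 and 98.5 and 101 at HH4, falls of 7.06-fold and 8.61-fold (adjusted p = 0.000195 and 0.00522), and the call of IL8L2 was lost without HH2 replicate 1 (adjusted p = 0.0597). SOCS1, of the same family as SOCS3, had 2456 and 1965 at HH2 and 377 and 375 at HH4 and fell 5.85-fold (log2 change -2.55 ± 0.19, adjusted p = 6.96e-10). CISH, another member, was below background on both HH4 arrays and fell at least 5.65-fold from 272 and 119.7 (adjusted p = 0.00287), lost without HH2 replicate 1 (adjusted p = 0.0525). The receptor TLR2A, which senses bacterial lipoproteins, fell from 761 and 692 to 164 and 220.2 (3.82-fold, adjusted p = 0.000166). IL1B had 136 and 96.5 at HH2 and 3.85 and 6.31 at HH4 and CYBB, an oxidase subunit of phagocytes, 596 and 589 at HH2 and 187 and 162 at HH4, and each of these calls (adjusted p = 0.0228 and 0.0275) was lost without any 1 of the 4 arrays, with adjusted p between 0.0679 and 0.146 for IL1B (without HH4 replicate 2 and HH2 replicate 1) and between 0.0863 and 0.134 for CYBB (without HH4 replicate 1 and HH4 replicate 2).

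The leukocyte and innate defence list as a whole had 4 of 28 genes higher and 5 lower, and its summed signal was 8998 and 9065 at HH2 and 14230.3 and 14720.4 at HH4. The rises were the chemokine CXCL12, with a log2 change of 1.27 and 3 of 4 probe sets called, LY86 (at least 6.66-fold), LY96, with only 1.70 and 4.93 at HH2 and 31.0 and 12.9 at HH4, and the scavenger receptor CD36 (at least 2.73-fold). The falls were TLR2A, IL1B, CYBB, AVD and the interferon-induced MX1, and the chemokine CCL4 was called lower in 1 of 2 probe sets, not the brighter. PTPRC, the surface marker of leukocytes also called CD45, was near background, with 44.1 and 44.4 at HH2 and 25.6 and 28.3 at HH4, and was not called (adjusted p = 0.168). Whether the cytokine values come from such cells was not tested. Among 12 immediate early genes 0 rose and 3 fell, JUN from 3365 and 2415 to 1297 and 1135 (2.35-fold, adjusted p = 0.00444, and under 2-fold without HH2 replicate 1), CCN2 from 1690.2 and 1596 to 603 and 514 (2.95-fold, adjusted p = 5.36e-07) and NR4A2, whose bound was at least 1.91-fold and whose call was lost without HH4 replicate 2 (adjusted p = 0.0711). Of 26 heat shock and stress genes 0 rose and 1, HSPB9, fell. The part of these genes in the cytokine falls was not tested. The 3' to 5' ratio of the actin control probe sets lay between 1.77 and 1.90 on the 4 arrays.

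Other large falls had varied roles. AVD, the biotin-binding avidin of egg white that is also made in inflamed tissue, had 649 and 408 at HH2 and 24.5 and 11.1 at HH4, below background on both HH4 arrays, a fall of at least 16.1-fold (adjusted p = 0.000255). It was the only one of 7 oviduct and egg white genes to be called. SERPINB2, a plasminogen activator inhibitor, was below background on both HH4 arrays and fell at least 10.6-fold from 384 and 297 (adjusted p = 7.01e-07), with 3 of 4 probe sets called. BPIFCB, of the BPI fold family, was among the brightest falls, with 15289 and 16703 at HH2 and 1468 and 1482 at HH4 (10.8-fold, adjusted p = 0.00382). VNN2, a pantetheinase, fell at least 12.4-fold in 1 of its 2 probe sets. LOC772158, LOC408038 and LOC424577, for which the files give no name beyond a locus number, fell 26.2-fold, 16.7-fold and 9.85-fold (adjusted p = 1.83e-09, 3.73e-10 and 6.02e-11). The cell cycle phosphatase CDC25A fell from 2446 and 2277 to 661 and 747 (3.36-fold, adjusted p = 9.43e-08) and was the only call among 47 cell cycle genes.

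Genes of general cell function were rarely called. None of 62 ribosomal protein genes and none of 67 oxidative phosphorylation genes was called higher or lower, with median changes of -0.08 and 0.11 on the log2 scale. Of the ribosomal genes 6 had a change above 0 and of the oxidative phosphorylation genes 46. At an unadjusted p under 0.05 in limma stood 4545 of all 12146 genes, counting both directions. Higher and lower genes at that level were not counted apart over all genes. The counts by direction that follow therefore have no background of the same kind, and are not read as more or fewer than in all genes. At that level 2 ribosomal genes were higher and 2 lower, and 27 oxidative phosphorylation genes were higher and 4 lower. All of these changed by less than 2-fold or were short of the adjusted threshold. Likewise 4 of the 47 cell cycle genes were higher and 25 lower at that level, against the single call of CDC25A. For the lists with no fall called, the members lower at an unadjusted p under 0.05 numbered 4 for FGF signalling, 2 for the neural plate, 2 for lipid metabolism, 5 for the lysosome, 3 for collagens, 6 for junctions and keratins, 1 for HOX groups 9 to 13, and 0 for lateral plate mesoderm and the other HOX groups. For heat shock and immediate early genes, which had no rise called, 0 were higher at that level, while 9 of 26 and 7 of 12 were lower. Of 39 hypoxia and glycolysis genes 6 rose, among them the angiogenic factor VEGFA, from 164 and 199.9 to 693 and 723 (3.91-fold, adjusted p = 3.43e-07), and FBP1, an enzyme of glucose synthesis (8.93-fold). The fall there was PFKFB3, which drives glycolysis, from 899.7 and 577 to 199 and 159 (4.05-fold, adjusted p = 2.81e-06), with 1 of 3 probe sets called.

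Collagens rose in 8 of 42 cases and fell in 0. COL1A2, a chain of the main fibrillar collagen, had 439 and 519 at HH2 and 5563 and 5841 at HH4 and rose 11.9-fold (adjusted p = 3.42e-11), and COL23A1 and COL24A1 rose 7.22-fold and 5.83-fold. Markers of differentiated tissues gave mixed counts. Of 22 heart and skeletal muscle genes 6 rose, with TNNT2, cardiac troponin T, from 237 and 189 to 778 and 896 (3.94-fold, adjusted p = 1.04e-08) and TNNC1 from 1528 and 1403 to 3694 and 3709.6 (2.53-fold), and the fall was TNNT3, a skeletal troponin (2.58-fold). The other rises were MYL4, NPPA, MYF5 and CSRP3. With a pseudocount of 32 NPPA and MYF5 were under 2-fold (log2 change 0.91 and 0.85), and CSRP3 rose by only 0.13 with its dim signals at their bound. Of 13 neuron genes 3 rose, SNAP25, CNTN2 and ISL1, the last also counted in the lateral plate list. SNAP25 was under 2-fold with signals floored at background and CNTN2 with quantile normalization (log2 change 0.96 and 0.97). The 1 fall was the neurofilament NEFM, from 2325 and 2416 to 1179 and 1108 (2.07-fold, adjusted p = 0.000139). The 6 measured W chromosome genes, present in females alone, had 0 calls and a median change of 0.19, with all 6 changes above 0.

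The same probe sets were read in the 4 arrays of HH1 and HH6, which do not enter the change from HH2 to HH4. These arrays did count in the spread fitted to each probe set, on which the p-values of both comparisons rest. The calls from HH1 to HH6 are thus not fully independent of those from HH2 to HH4. From HH1 to HH6, 11.6% of the 29600 probe sets rose and 7.76% fell by the same rule. Of the 1847 that rose from HH2 to HH4, 1237 (67.0%) also rose from HH1 to HH6, 7 fell, and the median change was 1.81 on the log2 scale. Of the 548 that fell, 292 (53.3%) fell and 11 rose, with a median of -1.36. TBXT, MSGN1, LMO2, FGB and HOXB3 had HH6 minus HH1 changes of 2.204, 6.32, 4.38, 7.91 and 4.82, and GSC, SOCS3 and CCL20 had -3.21, -3.10 and -2.93. ASTL and SERPINB2 fell from HH2 to HH4 but had changes above 0 from HH1 to HH6, of 1.59 and 0.81.

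Across all 15 stages the median of the rises stepped up at HH4 and stayed near that level. Relative to the 13 stages other than HH2 and HH4, the median log2 signal of the 1847 probe sets was -1.73 at HH1, -2.07 at HH2, -0.01 at HH4 and 0.01 at HH6. It stayed between -0.11 at HH14 and 0.12 at HH9 up to HH24 and reached 0.52 at HH32. The 548 falls stood at 0.99 at HH1, 1.08 at HH2, -0.60 at HH4 and -0.25 at HH6, and at 0.35 at HH38. Of the rises 125 (6.77%) had their highest stage mean at HH4, 263 (14.2%) at HH9 and 415 (22.5%) at HH38. TBXT and MSGN1 were highest at HH4, TTR at HH8, APOB, LMO2 and FGB at HH9, and HOXB3 and CDH5 at HH11. The signal of APOB went from a mean of 25599 at HH9 to 162 at HH19 and to 5974 at HH38. IL6, in its called probe set, and CCL20 were highest at HH2, where their means were 644 and 1128, and from HH4 to HH38 the means of CCL20 lay between 23.0 and 87.3.

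**Figure D5:**
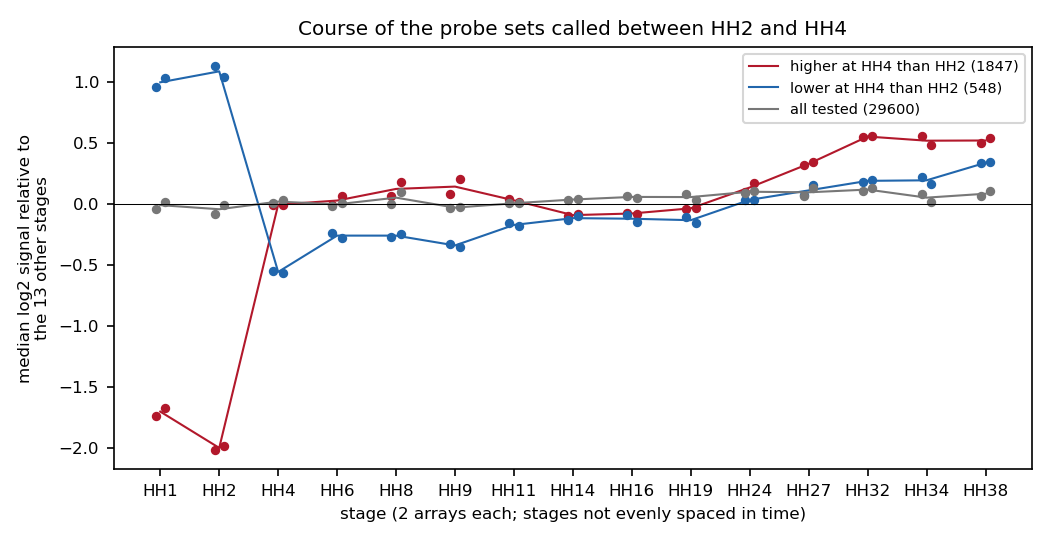
The lines give the median log2 signal of the 1847 rises, the 548 falls and all 29600 probe sets tested at each of 15 stages, relative to the 13 stages other than HH2 and HH4, and the dots are single arrays. The rises step up between HH2 and HH4 and stay near 0 until HH24. The choice of these probe sets fixes the step itself, and the reference sets the mean of the 13 other stages to 0 for each probe set.

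The neighbouring steps share arrays with this one, so their values stand side by side. From HH1 to HH2 3206 probe sets were called and from HH4 to HH6 96. APOB had log2 changes of -2.65 from HH1 to HH2, 12.65 from HH2 to HH4 and 0.89 from HH4 to HH6. MSGN1 had 1.74, 5.08 and -0.50 over these steps, and SOX17 had 0.02, -1.31 and -0.52. The difference between the change from HH2 to HH4 and that from HH1 to HH2 was called higher for 12 of 25 neural plate genes, 12 of 27 blood and vessel genes and 20 of 43 plasma protein genes, against 8.6% of all genes, and lower for 4, 1 and 1 of them, against 5.85%. For streak and nascent mesoderm it was called higher for 2 of 27 and lower for 4. Against the step from HH4 to HH6 the counts called higher were 12 of 32 for yolk sac genes, 10 of 23 for paraxial mesoderm and 5 of 8 for HOX groups 1 to 4, against 4% of all genes, and those called lower were 1, 1 and 0, against 1.26%. For neural plate, blood and vessel, plasma protein and streak genes 8, 10, 13 and 6 were higher and 0, 1, 2 and 0 lower. Against the step from HH1 to HH2 the yolk sac, paraxial and HOX lists had 9, 10 and 5 higher and 2, 1 and 0 lower. Both differences contain the change from HH2 to HH4, in which these lists were already counted. Their counts are thus no separate evidence.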

How the data were processed

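Chicken embryo RNA at 15 stages, 2 pools a stage, was measured on 30 Affymetrix arrays. The deposited intensity values are linear MAS5 signals for each probe set, per the submitters' processing notes. The labels do not state its version or settings. On every array the mean after trimming 2% at each end was 500, and no value was at or below 0. The deposited values were converted to log2 with no further scaling, and raw probe intensities were not used here.

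Gene symbols came from the platform's annotation, which gave 27166 chicken probe sets 1 symbol, while 177 had several and 10350 had none. In assembly GRCg7b the gene table held the identifier of 26851 of those with 1 symbol and changed 0 names. Coordinates are not given, since the files name no genome build. A probe set was kept when its signal on 2 or more of the 30 arrays was no lower than that array's 40th percentile. This filter ignores the stage labels, but the HH2 and HH4 arrays count in it. A probe set could therefore be kept through the 2 arrays of 1 of these stages alone. Background was the 95th percentile of 689 probe sets for other organisms, and it replaced dimmer signals in bounded folds, array by array.

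A model with 15 stage means (15 residual degrees of freedom) was fitted to all 29600 kept probe sets in R 4.3.3 with the package limma 3.58.1, using lmFit and then eBayes with its trend option, and Benjamini-Hochberg adjustment over all of them. The contrasts were HH4 minus HH2, HH6 minus HH1, the neighbouring steps, and the differences between steps. Using all 30 arrays assumes that the spread within a stage is alike in each. The script was tested on simulated data in which 200 of 29600 probe sets were changed. It called 34 of 50 changes of 1.5 on the log2 scale and 43 of 50 changes of 4, with 2 false calls. A probe set that was not called may thus still have changed. Only 200 probe sets were changed there, against 2395 called from HH2 to HH4, and the Benjamini-Hochberg threshold depends on that share. The simulated rates therefore do not carry over to the real comparison. Python 3.11.15 and matplotlib 3.10.9 drew the figures.

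The 40 gene lists were written from textbook knowledge. Many genes stand in more than 1 list, so the counts of different lists are not independent. The comparison, its lists and its tests were chosen with earlier results of these data known. A gene in a list is its kept probe set with the highest mean over the 30 arrays, and the text says where other probe sets of a gene disagreed for the main examples. Calls use the fitted change, so the list counts include some dim genes whose bounded change was under 2-fold. Examples are LGR5, COL8A1 and PIT54 in the WNT, collagen and plasma protein lists, with bounded log2 changes of 0.33, 0 and 0.16. Named genes were the 12 largest rises and 12 largest falls by bounded fold among called probe sets with 1 symbol and separate stages, up to 6 called members of each list, all landmark genes, the extremes of lists with few calls, and the 6 largest bounded changes among probe sets that appeared at HH4. This named 196 genes, and not all of them are printed. The following were chosen after their values were seen: ALB, AFP, PTPRC, IL8L1, IL8L2, SOCS1, CISH, GNOT2, SNAI1, TAL1, FLT1, NKX2-5, PRTG, LRP2, AMBP, FGG, HBBR, CDX1, CDX2, CDX4, VLDLR, FGF4, SALL4, FOXD3, CXCL12, LY96, MX1, CCL4, TCF15, PAX9, RUNX1, SOX1, TBX5, TBX20, CD34, PECAM1, SPI1, ERG, NCAM1, PAX6, GBX2, COL8A1 and PIT54. Alternatives in scaling, filter, treatment of dim values, arrays in the fit, variance model, replicate block, fold threshold and arrays left out were tried.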

Additional observations from a re-analysis of the deposited data

How the results depend on the processing

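The count of changed probe sets lay between 1807 and 2449 over the alternatives that keep a 2-fold minimum, against 2395. It was 5680 (3440 higher, 2240 lower) with the adjusted p alone, which admits changes under 2-fold by construction. Scaling to the 75th percentile gave 1646 higher and 711 lower (69.8% higher, median change -0.05), and quantile normalization 1470 and 650 (69.3%). Leaving out 1 of the 4 arrays gave 2080 to 2328 calls (1511 to 1880 higher, 406 to 569 lower). It left 10 to 12 genes higher for paraxial mesoderm, 10 to 12 for lateral plate, 13 to 14 for blood and vessel, 14 to 16 for yolk sac, 19 to 23 for plasma proteins, 10 to 12 for neural plate, 6 to 8 for streak and 6 for HOX groups 1 to 4. A lone array is then assumed to vary like the other stages. Other alternatives moved some list counts further, in either direction. Lateral plate had 9 genes higher with the HH1 to HH6 arrays alone, and yolk sac had 19 with a pseudocount of 32. With the HH2 and HH4 arrays alone, on 2 residual degrees of freedom, 2000 were called. With the replicate number as a replicate block 2400 were called (1849 higher, 551 lower). Deviations of same-numbered arrays correlated at 0.02 between HH2 and HH4, and nothing in the labels pairs them. No named gene that was called in the main fit or in an alternative changed direction between them. Sign changes of uncalled genes were not counted. The small median change over all probe sets did change sign, from 0.04 to -0.05 with 75th percentile scaling and to -0.04 with quantile normalization. Depth of signal limits the 743 rises and 169 falls given as bounds, and among single genes the calls of MYF5, PAX9, RUNX1, SOX1, TBX5 and TBX20, all near background, were lost under 4 or more alternatives each. Of the genes described, settings other than a left-out array also ended the calls of CDX1 (3 settings, adjusted p up to 0.0667), CDX4 and DDX4 (without the variance trend, adjusted p = 0.0829 and 0.0777), HBZ and JUN (HH1 to HH6 arrays alone, adjusted p = 0.11 and 0.0755), CHRDL1, NR4A2, TCF15 and IL1B, and brought SFRP1 (75th percentile scaling, log2 change 0.95) and FZD5 (pseudocount of 32, log2 change -0.98) under 2-fold. Such settings also ended the calls of KRT222 and CD36 (HH1 to HH6 arrays alone, adjusted p = 0.185 and 0.081). FRZB was under 2-fold with 75th percentile scaling (log2 change 0.91).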
